A study of Mus musculus with 4 samples.

Results

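The widest binding regions of the RNA helicase DHX9 in mouse embryonic stem (ES) cells were taken as the peaks of 500 bases or more in the deposited peak list, with the mitochondrial genome left out. There were 953 such wide peaks among 59514 nuclear peaks (1.60%), of 59563 peaks in all. They were set beside 30165 nuclear peaks of common width, called middle-width peaks here, which run from the lower quartile of all nuclear widths to 1 base above the upper quartile of 267 bases. The wide peaks were chosen by their width, so their widths are a description and no result.

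DHX9 is a helicase that unwinds double-stranded RNA and RNA:DNA hybrids, and it carries double-stranded RNA-binding domains beside its helicase core. It is known to bind inverted repeats that fold back on each other within transcripts, and it takes part in transcription, splicing and RNA export. ES cells are self-renewing cultured cells derived from the early embryo and are held in that state by factors such as Oct4 (Pou5f1), Nanog and Sox2.

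The study pulled down RNA crosslinked to DHX9 from WT26 cells, a feeder-independent male mouse ES line of the mixed strain C57BL/6x129sV grown with leukemia inhibitory factor. The 4 samples were 2 DHX9 pulldowns with a rabbit antibody and 2 rabbit IgG controls, each a pair of biological replicates of this single line with no other genotype or treatment. The assay, FLASH, is a form of CLIP-seq that ligates barcoded adapters to the RNA on the beads before sequencing. The deposited list was 1 for the whole series and gave only the position and strand of each peak, with no height, read count or value per sample, so no difference between DHX9 and IgG or between replicates could be measured here and the depth is unknown.

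Intervals in brackets are 95% Wilson intervals over peaks, or Newcombe intervals for differences. They cover counting error only, and they are too narrow because peaks of the same gene or run are not independent. Genes are RefSeq gene bodies on the mouse build mm10. A peak was placed in every gene that holds its midpoint, whatever the strand, so it can lie in several genes that overlap. A peak counted in a gene is therefore not always on that gene's strand. Exons, introns and repeats were not analysed.

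Of the 10 ES cell markers, 9 held a peak and 4 held a wide one: Tet1 had 18, Zfp42 4, Sall4 3 and Esrrb 1. Of all 49956 RefSeq genes used, 5961 held a nuclear peak, and 9.65% of these held a wide one. The ES cell markers had 453 peaks, of which 26 (5.74%) were wide, 18 of these in Tet1, against 1.60% of all nuclear peaks. A gene with more peaks has more chances to hold a wide one, and the markers were chosen with earlier results of these data known. Nanog, Pou5f1 and Sox2 had 13, 12 and 6 peaks, the widest of 380, 461 and 485 bases. Of 10 fibroblast markers only Fn1 held peaks, 63 of them, of up to 497 bases. Of 10 markers of differentiated lineages only Tubb3 did, with 7 of up to 485 bases.

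The wide peaks ran from 500 to 1001 bases with a median of 545 bases, and the quartiles were 519 and 597 bases. The middle-width peaks had a median of 196 bases. Numbers fell off steeply with width, and 227 peaks reached 600 bases, 48 reached 700 bases and 11 reached 800 bases. Just inside the threshold 126 peaks measured 500 to 509 bases, and just outside it 214 peaks measured 490 to 499 bases. This drop at 500 bases was steeper than those beside it: in bins of 20 bases the counts were 488 and 434 in the last bins below 500 bases, and 256 and 181 in the first bins from 500 bases on. The source of the drop was not tested. Wide peaks held 540.4 kb, or 4.15% of all bases in nuclear peaks.

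**Figure D1:**
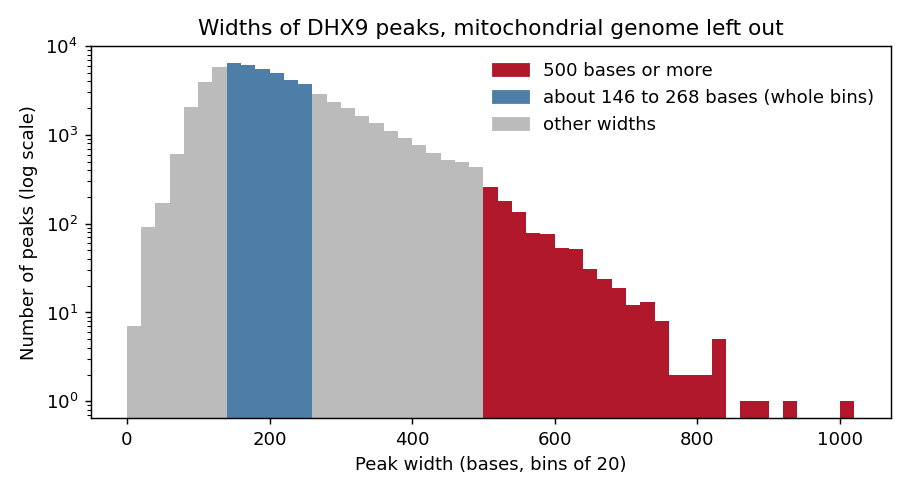
Number of nuclear DHX9 peaks (log scale) by width in bins of 20 bases, with wide peaks in red. Bins whose centre lies within the middle-width range are in blue and other bins in grey. There are 434 peaks in the last bin below 500 bases and 256 in the next, and 11 peaks reach 800 bases.

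The miRNA clusters and promoters below were picked out after their values were seen, because there the wide peaks lie over annotated RNA whose sequence is known. The first is the miR-290 to miR-295 cluster, which makes the most abundant miRNAs of mouse ES cells from a single transcript, D7Ertd143e (chr7:3218784-3221015, a long noncoding RNA gene). All 3 peaks on this transcript were wide, at 728, 550 and 722 bases on the plus strand, and together they covered 2000 of its 2232 bases (89.6%). The 728-base peak (chr7:3218845-3219572) held the whole hairpins of miR-291a, miR-292 and miR-291b, with miR-292b annotated opposite to miR-292, and the 722-base peak (chr7:3220211-3220932) those of miR-293, miR-294 and miR-295. The hairpin of miR-290a lies before the annotated start of D7Ertd143e, under a separate peak of 462 bases (chr7:3218318-3218779). That peak belongs to the cluster but is not wide, so the 3 peaks and the 89.6% hold for the transcript as annotated only. The protein-coding gene Nlrp12, an innate immune regulator, is annotated over the same stretch. The 3 peaks therefore fall in its gene body too, which was counted without regard to strand.

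**Figure D2:**
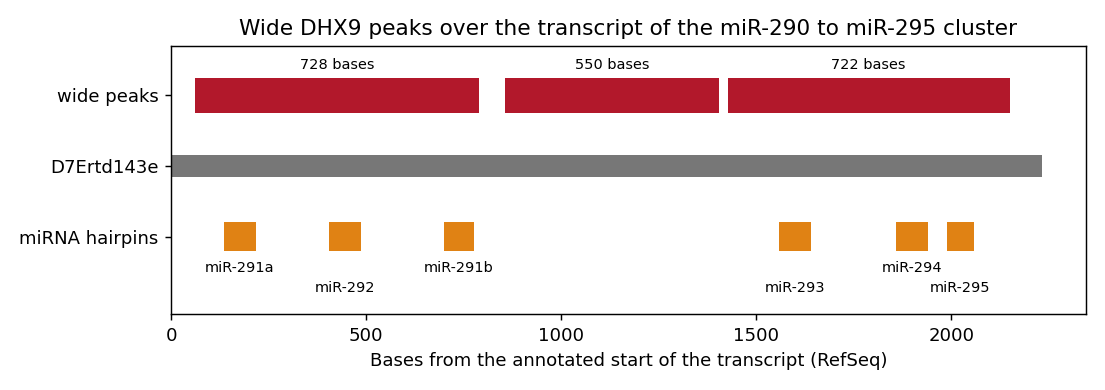
Map of the 3 wide peaks (red), the annotated transcript D7Ertd143e (grey) and 6 miRNA hairpins (orange), in bases from the transcript's annotated start. The peaks of 728 and 722 bases each lie over 3 hairpins, and the peak of 550 bases over none of the 6.

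The second is the cluster of miR-17 to miR-92, whose miRNAs promote cell proliferation. Its wide peak of 508 bases (chr14:115043812-115044319, plus strand) held the whole hairpins of miR-18, miR-19a and miR-20a. The hairpin of miR-19b-1 lay partly under the same peak, and those at the ends of the cluster, miR-17 and miR-92-1, were partly covered by narrower peaks, miR-17 by one of 164 bases. A further wide peak of 657 bases in Scd2, a fatty acid desaturase gene, held the hairpin of miR-5114 (chr19:44303171-44303231). In all, 4 wide peaks held 11 whole miRNA genes, and 17 mature miRNAs lay whole inside a wide peak of their own strand, 11 of them on chromosome 7, 5 on chromosome 14 and 1 on chromosome 19.

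Mature miRNAs of both clusters are shown because several carry related seeds, the bases 2 to 8 by which a miRNA pairs with its targets. The sequences are from RefSeq on mm10, 5′ to 3′, with the seed in capitals.
mmu-miR-291a-3p: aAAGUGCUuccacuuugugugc
mmu-miR-294-3p: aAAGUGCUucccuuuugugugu
mmu-miR-295-3p: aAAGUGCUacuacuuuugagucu
mmu-miR-291b-3p: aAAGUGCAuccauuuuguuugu
mmu-miR-293-3p: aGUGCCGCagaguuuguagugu
mmu-miR-20a-5p: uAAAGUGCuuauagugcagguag
mmu-miR-18a-5p: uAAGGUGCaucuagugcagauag
mmu-miR-19a-3p: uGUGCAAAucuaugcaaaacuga

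The first 3 share the whole seed AAGUGCU, which 5 of the 1738 mature miRNAs in the table carry. The 6 bases AAGUGC stood within bases 1 to 8 of 5 of the 17 mature miRNAs under wide peaks, against 18 of the 1738 in the table (1.04%). Those 5 are the 3 with the shared seed, miR-291b-3p and miR-20a-5p. From the hairpin of miR-292 only miR-292a-5p was listed, without a 3p miRNA, so these counts hold for the mature miRNAs as listed. The miRNAs of a cluster share a transcript, so they are not separate observations.

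Small RNA genes as a class were as rare at the centre of wide peaks as at that of middle-width peaks within these intervals. A small RNA gene lay at the central 50 bases of 4 wide peaks (0.420%, interval 0.163 to 1.07%), against 113 middle-width peaks (0.375%, 0.312 to 0.450%), and the difference was 0.05 points (-0.22 to 0.70). By kind, a miRNA gene lay at the centre of 2 wide peaks (0.210%, 0.058 to 0.762%), against 10 middle-width peaks (0.033%, 0.018 to 0.061%). A snoRNA gene did so for 2 wide peaks (0.210%, 0.058 to 0.762%), against 79 middle-width peaks (0.262%, 0.210 to 0.326%). The share over miRNA genes was thus higher for wide peaks, but it rests on 2 peaks. No wide peak had a tRNA or an snRNA gene at its centre. The 2 snoRNA genes whole inside a wide peak, RNAs that guide chemical modification of other RNAs, were Gm12238 within G3bp1, under a peak of 521 bases, and Snord64 within Snhg14, under one of 554 bases.

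Promoter windows, 250 bases before to 50 after an annotated start, were overlapped on their own strand by 14 wide peaks (1.47%, 0.877 to 2.45%), against 206 middle-width peaks (0.683%, 0.596 to 0.782%). A longer peak meets a window more often by its length alone, so this difference was not read further. The 14 peaks met 16 windows, among them those of Tet1, Xpo1, Jade1, Msh6, Ankrd11 and Med13l. Tet1 makes the enzyme that oxidises 5-methylcytosine in DNA, and its wide peak of 701 bases (chr10:62886778-62887478, minus strand) began 154 bases before the start on which the promoter window is set. The gene body of Tet1 as annotated reaches farther out, and the peak began 9 bases before it. Med13l, a subunit of the kinase module of Mediator, had its whole window under a peak of 560 bases (chr5:118560291-118560850, plus strand). Both windows are shown as RefSeq has them on mm10, 5′ to 3′ on the gene's strand, with the bases under the wide peak in capitals: 204 of 300 for Tet1 (chr10:62887275-62887574, minus strand) and all 300 for Med13l (chr5:118560469-118560768, plus strand).
Tet1: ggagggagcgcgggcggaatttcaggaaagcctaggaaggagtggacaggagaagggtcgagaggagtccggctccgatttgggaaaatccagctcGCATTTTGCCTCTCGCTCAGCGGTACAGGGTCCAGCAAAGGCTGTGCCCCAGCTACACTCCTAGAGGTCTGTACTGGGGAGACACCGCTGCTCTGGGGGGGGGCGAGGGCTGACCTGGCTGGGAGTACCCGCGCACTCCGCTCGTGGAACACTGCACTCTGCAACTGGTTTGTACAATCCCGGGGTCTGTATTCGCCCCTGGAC
Med13l: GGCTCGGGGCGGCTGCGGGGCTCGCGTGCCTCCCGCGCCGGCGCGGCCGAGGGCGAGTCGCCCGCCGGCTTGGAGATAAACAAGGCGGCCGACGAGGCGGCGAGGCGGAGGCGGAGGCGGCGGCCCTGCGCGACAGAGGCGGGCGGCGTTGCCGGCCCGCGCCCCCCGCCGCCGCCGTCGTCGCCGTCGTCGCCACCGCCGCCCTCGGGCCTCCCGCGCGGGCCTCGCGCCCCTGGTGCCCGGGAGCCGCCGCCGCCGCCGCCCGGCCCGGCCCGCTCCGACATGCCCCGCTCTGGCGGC

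The Tet1 window held 17 CG pairs and the Med13l window 61. The 16 windows had a median of 32.5 CG pairs, against 7 over all 32851 windows of the table. The GC box, GGGCGG or CCGCCC, stood in 12 of the 16 (75%), against 35.7% of all windows. The TATA letters TATAAA or TTTATA stood in 1 of the 16 (6.25%), against 13.6% of all windows. These are matches of letters on either strand, and the windows under middle-width peaks were not searched. The 16 include several windows of Jade1 and overlapping ones of Hnrnpa2b1, so they are not separate observations. The 32851 windows include those of genes without any peak, so these contrasts do not set wide peaks against other peaks.

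Tet1 and Jarid2 held the most wide peaks of the protein-coding genes. A gene body held the midpoint of 908 wide peaks, spread over 575 genes of the 5961 genes with any nuclear peak (9.65%). Tet1 had 18 wide peaks of its 151 peaks (chr10:62804570-62887469), of 501 to 740 bases with a median of 554 bases, and 12.8% of its gene body lay under them. All 151 lay on the minus strand, that of the gene. Gm51805 (chr10:62865670-62910643), a long noncoding RNA gene that overlaps the start of Tet1, held 11 of 66. The 2 genes shared 6 wide peaks, so that 23 lay in either, and 5 lay in Gm51805 alone, all on the minus strand too. With this overlap, the list does not tell which transcript carried the shared peaks.

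Jarid2, a partner of Polycomb repressive complex 2, followed with 10 wide peaks of 205 (chr13:44730774-44921643). Enah, an actin regulator at the cell's leading edge, held 9 of 211, with the widest at 793 bases. G3bp1, which nucleates stress granules, held 8 of 64, and Mybl2, a cell cycle transcription factor, 8 of 58. Arid1a, a subunit of the BAF chromatin remodeller, held 7 of 79, Ntn1, the guidance cue netrin-1, 7 of 111 and Xpo1, the main nuclear export receptor for proteins, 7 of 75. Dhx9 itself held 6 of 45 (chr1:153455756-153487688), of 503 to 550 bases. Fam169a, the corepressor gene Cbfa2t2, the splicing factor gene Rbm39, the ubiquitin ligase gene Mkrn1 and the replication origin gene Orc2 held 5 each. These last 5 were taken from 15 protein-coding genes level at 5 wide peaks, by the number of bases under them. Over all 25 genes with 5 wide peaks or more, wide peaks made up between 2.51% of the gene's peaks (Ctbp2) and 26.3% (Tomm40), against 1.60% over all nuclear peaks.

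**Figure D3:**
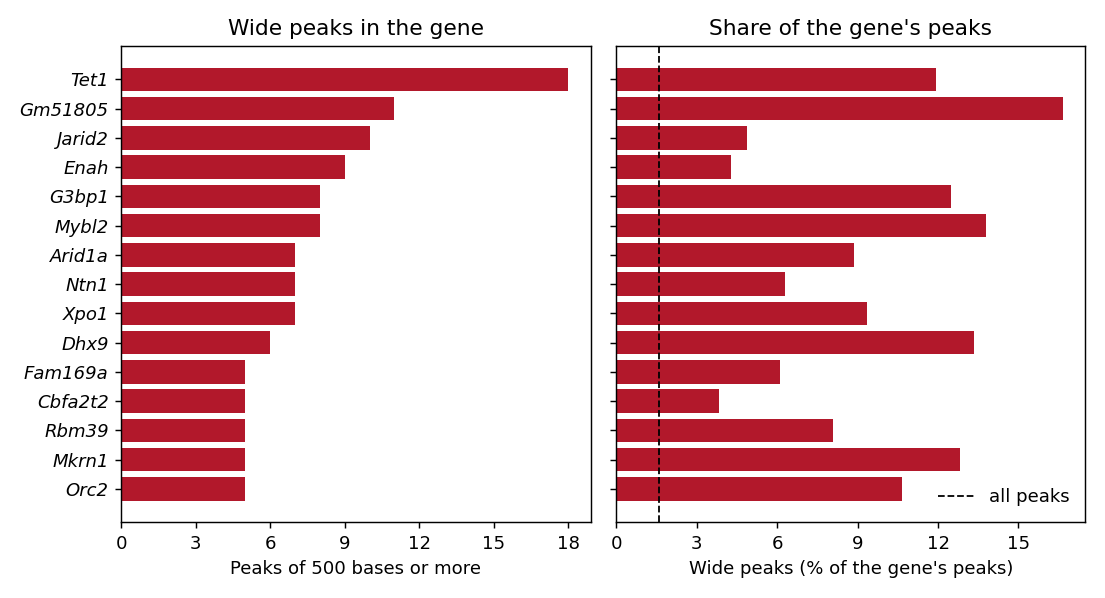
The 15 genes with the most wide peaks (those level at 5 chosen by bases under wide peaks), with the number of wide peaks on the left and their share of the gene's peaks in percent on the right. The dashed line marks the share over all nuclear peaks, 1.60%, and the longest bars are Tet1 with 18 wide peaks and Gm51805 with 16.7% of its peaks wide.

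By share, among the 852 genes with 20 peaks or more, Slc2a3 (5 of 30), Eif4b (4 of 24) and Zfp42 (4 of 24) stood level with Gm51805 at 16.7%. Slc2a3 is a glucose transporter, Eif4b a translation initiation factor, and Zfp42 (Rex1) a zinc finger protein of undifferentiated ES cells. The glutamine transporter gene Slc1a5 (15.0%), the purine synthesis gene Gart and the mismatch repair gene Msh6 (14.3% each) came next. Mybl2 (13.8%), U2af1, which recognises the 3′ splice site (13.6%), and Dhx9 (13.3%) closed the list of 10. In 464 of the 852 genes no peak was wide. Msi2, an RNA-binding protein gene, had 180 peaks of up to 450 bases, and Kansl1 and Zfp532 had 118 each, of up to 483 and 489 bases.

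Wide and middle-width peaks were each ranked by gene on their own counts, and the top 10 genes held a larger share of the wide peaks. The 10 protein-coding genes with the most wide peaks held 85 of them (8.92%, 7.27 to 10.9%), against 950 middle-width peaks (3.15%, 2.96 to 3.35%) in the 10 genes with the most of those. The number of peaks, 953 against 30165, also bears on such a share, and its part was not tested. The 2 lists shared Jarid2 and Enah. The last place in the first list was chosen among the 15 genes level at 5 wide peaks, and of these Ctbp2, with 100 middle-width peaks, was in the second list. Ankrd11, a chromatin regulator with the most peaks of any gene in the second list, had 222 peaks of which 3 were wide. Of the 537 protein-coding genes with a wide peak, 357 had 1, 86 had 2, 51 had 3, 19 had 4 and 24 had 5 or more.

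The share of wide peaks was higher in genes with more peaks. It was 0.385% (0.244 to 0.608%) in protein-coding genes with 1 to 4 peaks, 1.10% with 5 to 19, 1.74% with 20 to 49, 2.22% with 50 to 99 and 2.46% (2.09 to 2.90%) with 100 or more. By peaks per kb, in genes with 5 peaks or more, it was 0.491% in the lowest quartile of genes and 2.69% in the highest. Protein-coding genes with a wide peak had a median of 29 peaks, 0.890 peaks per kb and a length of 38.2 kb. Those with peaks but no wide one had a median of 4 peaks, 0.142 peaks per kb and a length of 30.8 kb. A gene with more peaks has more chances to hold a wide one, so the selection itself sets part of this contrast in medians. The amount of each RNA in these cells was not measured in the list, and its part in these shares was not tested.

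In biotype, wide and middle-width peaks were alike within a few points. Of the wide peaks 92.3% (90.5 to 93.9%) lay in a protein-coding gene, against 93.3% (93.0 to 93.6%) of the middle-width peaks, a difference of -0.99 points (-2.87 to 0.56). A long noncoding RNA gene without a protein-coding gene held 21 wide peaks (2.204%), against 591 middle-width peaks (1.96%). Of the peaks in genes of known strand, 98.5% of the wide ones lay on the strand of such a gene, against 98.6% of the middle-width ones. Among the 11 wide peaks that lay only opposite to genes of known strand, 1 of 587 bases met promoter windows of Ubtf, a factor of ribosomal RNA transcription, from the other strand.

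Among long noncoding RNA genes, 26 of the 550 with a peak held a wide one (4.73%), against 537 of 4981 protein-coding genes (10.8%). These shares are per gene and take no account of how many peaks each gene had. By peaks, 4.93% (3.73 to 6.50%) of the wide ones lay in a long noncoding RNA gene, against 4.38% (4.16 to 4.62%) of the middle-width ones. Malat1, an abundant RNA of nuclear speckles, had 3 wide peaks among its 4 peaks, of 594, 664 and 711 bases, and 28.2% of the gene lay under them. Malat1 is among the 4 genes with at least 3 peaks of which 50% or more were wide. The others were D7Ertd143e, Nlrp12, counted with the same wide peaks as D7Ertd143e, and the splicing factor gene Srsf2, with 2 wide peaks of 3. The other genes of this class with the most were Gm40592 and Gm40309 with 3 each, and Tbrg3, Snhg14 and AU020206 with 2 each. Lncenc1, a noncoding RNA named for its expression in ES cells, had 1 of 578 bases among 23 peaks. In the list of nuclear noncoding RNAs, 5 of 15 genes with a peak held a wide one. Besides Malat1 and Snhg14 they were Tsix, with 3 of 53 peaks, Kcnq1ot1, with 1 of 34, and Neat1, the scaffold RNA of paraspeckles, with 1 of 9. Xist lies within the gene body of Tsix on the opposite strand and held no wide peak among the 30 peaks in its body. These 30 were counted without regard to strand, so they are not all known to be on Xist RNA.

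By gene group, wide peaks were found in 5 of the 17 pluripotency genes with a peak, which had 36 wide of 798 peaks (4.51%, 3.28 to 6.18%). Over all genes, 9.65% of those with a peak held a wide one and 1.60% of the nuclear peaks were wide; the same 2 shares stand beside every group that follows. Tet1 (18) and Jarid2 (10) held most of these 36. Of the splicing factor genes 12 of 24 held one, with 19 wide of 519 peaks (3.66%). U2af1 and Hnrnpu, a scaffold protein of nuclear RNA, had 3 each, and Hnrnph1 and Srsf2 had 2 each. Of the RNA helicase genes 5 of 14 did, with 11 of 231 peaks (4.76%): Dhx9 had 6, Dhx30 2, and Ddx39b, Dhx37 and Ddx21 1 each.

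The double-stranded RNA binding and editing genes had 3 of 9 genes and 3 of 204 peaks (1.47%), among them 1 each in Son and Stau1. The genes of Adar, the main RNA editing enzyme, and of Drosha and Dgcr8, which cut miRNA hairpins, had peaks of up to 285, 373 and 460 bases. The ribosomal protein list covers 17 of these genes and not the whole family. All 17 had a peak, and Rpl23 held wide peaks (2 of 9). Outside the list, and looked up after the values were seen, Rps18 held 2 wide peaks, and Rpl35 and Rpl22 held 1 each. Chromatin regulators had 9 of 19 genes but 18 of 1254 peaks (1.44%), with 5 in Ctbp2 and 3 in Ankrd11. Cytoskeletal regulators had 5 of 11 genes and 16 of 652 peaks (2.45%), 9 of them in Enah. The differentiated lineage markers had none, with 1 of 16 genes holding any peak. These groups were chosen with earlier results of these data known, so no share of a group is a test.

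Along protein-coding genes of 20 kb or more, both kinds of peak were commonest near the start, and wide peaks slightly more so. Of 717 wide peaks in 400 such genes, 32.6% (29.3 to 36.2%) lay in the first 20% of the gene body, against 28.9% (28.3 to 29.5%) of 23663 middle-width peaks in 2726 genes. The difference was 3.76 points (0.37 to 7.32). It was 4.40 points (-0.77 to 10.03) where only genes that overlap no other gene were used, and 4.45 points (-2.15 to 11.8) for peaks of 600 bases or more, intervals that include 0. In the last 20% of the gene lay 11.4% of the wide peaks, against 12.3% of the middle-width peaks. The median wide peak lay 17.4 kb from the start of its gene, against 20.4 kb for the middle-width peaks.

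**Figure D4:**
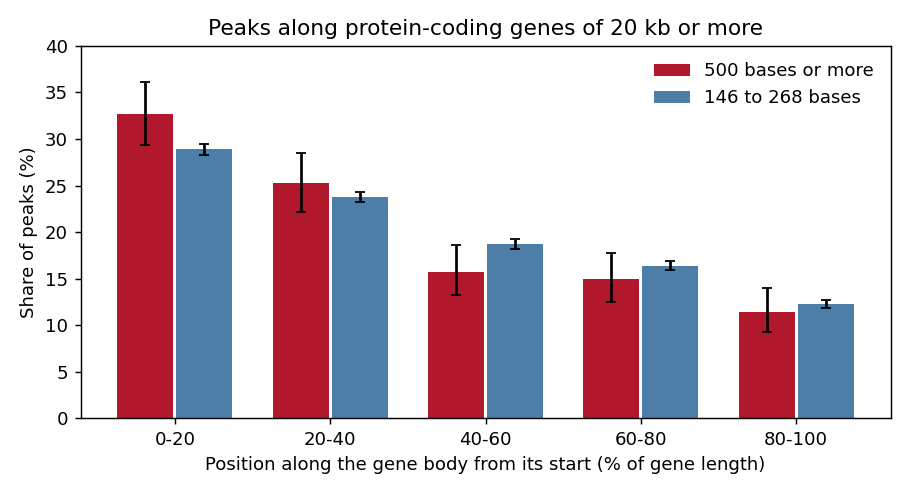
Share of peaks (%) in each 20% of the gene body from its start, for wide peaks (red) and middle-width peaks (blue) in protein-coding genes of 20 kb or more, with bars for 95% Wilson intervals. Both fall along the gene, and the first 20% holds 32.6% of the wide and 28.9% of the middle-width peaks.

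Within the same gene the order was similar. In 397 genes with both kinds of peak, the wide peaks lay nearer the start on average in 248 and nearer the end in 149, with a median difference of -5.61 points of gene length. By length of gene, the first 20% held 24.3% of the wide peaks, against 23.1% of the middle-width peaks, in genes of 20 to 50 kb. It held 39.4% (33.4 to 45.8%) of the wide peaks, against 30.5% (29.5 to 31.5%) of the middle-width peaks, in genes of 50 to 100 kb. In longer genes it held 39.4% (32.1 to 47.1%) of the wide peaks, against 35.7% (34.5 to 36.9%) of the middle-width peaks.

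The genes with the most wide peaks showed this to different degrees. In Jarid2, 9 of 10 wide peaks lay in the first 20% of the gene, against 33 of 99 middle-width peaks. In Ntn1 all 7 wide peaks did, against 33 of 53 middle-width peaks, and in Arid1a 5 of 7 wide peaks, against 1 of 34. In Tet1 the wide peaks had a median position of 31.6% of the gene, against 63.1% for the middle-width peaks, and they ran from 0.341 to 77.8 kb from the start of the gene body. In Dhx9, 3 of 6 wide peaks lay in the first 20%, against 2 of 18 middle-width peaks. Other genes went the other way by this share. In Xpo1, 1 of 7 wide peaks lay in the first 20%, against 8 of 23 middle-width peaks, with medians of 37.6% and 36.6%. In Mkrn1, 0 of 5 wide peaks did, against 4 of 14 middle-width peaks, with medians of 58.7% and 38.8%. In Rbm39 it was 0 of 5 wide peaks, against 8 of 26 middle-width peaks. These genes were named for their number of wide peaks and not for where these lie, but they are single genes with 5 to 18 wide peaks each.

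Measured from edge to edge, wide peaks lay nearer to their neighbours and in runs of more peaks. A longer peak reaches nearer to its neighbours by its length alone, and the part of this was not tested. From midpoint to midpoint the median distance of wide peaks was 488 bases, and it was not computed for middle-width peaks. The gap to the nearest peak on the same strand had a median of 59 bases (52 to 67) for wide peaks, against 160 bases (157 to 164) for middle-width peaks, measured from edge to edge. A neighbour stood within 50 bases of 45.5% (42.4 to 48.7%) of the wide peaks, against 24.5% (24.0 to 25.0%) of the middle-width peaks. Within 200 bases the shares were 85.5% and 55.7%. Only 8 wide peaks (0.839%) had no neighbour within 10 kb, against 1285 middle-width peaks (4.26%). Neighbours within 1000 bases had a median width of 260 bases beside wide peaks and 203 bases beside middle-width peaks. Such a neighbour was itself wide for 10.5% of the wide peaks, against 2.19% of the middle-width peaks.

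**Figure D5:**
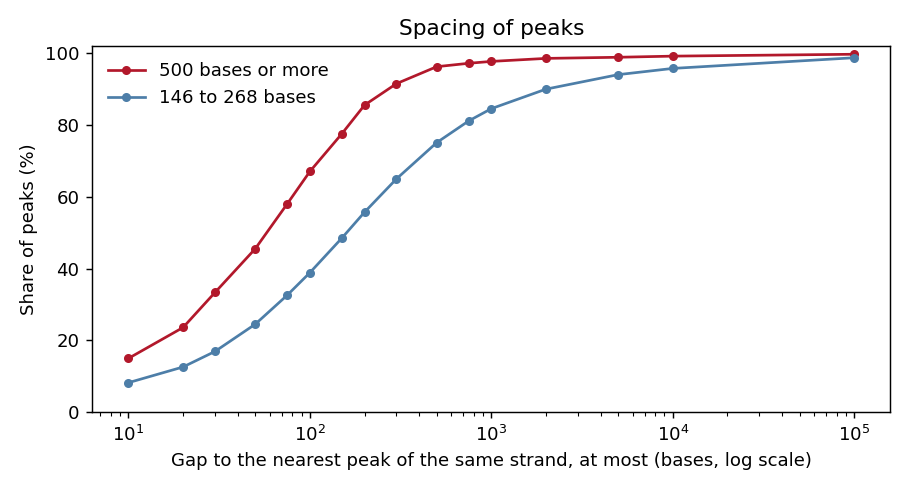
Share of peaks (%) whose nearest peak on the same strand lies at most the given gap away (bases, log scale), for wide peaks (red) and middle-width peaks (blue). The red line lies above the blue at every gap drawn, with 85.5% against 55.7% at 200 bases.

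Runs were formed from peaks of a strand that follow each other at gaps of up to 200 bases. A wide peak stood in a run of 4 peaks at the median, against 2 for middle-width peaks, and 14.5% of the wide peaks, against 44.3% of the middle-width peaks, stood alone. Of the 840 runs with a wide peak 94 held several, up to 4. The runs with 4 were in Eif4b (17 peaks over 7.27 kb), Foxp4, a forkhead transcription factor gene (18 peaks over 6.97 kb), and Zfp42 (10 peaks over 5.42 kb).

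Merging neighbours changed which places counted as wide. When peaks of a strand within 50 bases of each other were merged, 4184 stretches reached 500 bases, and 3249 of these were made only of narrower peaks, while 935 held a wide peak. There were 515 stretches of 1000 bases or more. The longest, of 2598 bases with 6 peaks of which 2 were wide, lay in Rbm39 (chr2:156170754-156173351), and the third, of 2427 bases in Cbfa2t2, held no wide peak. By number of such stretches Enah and Tet1 came level with 34 each and Jarid2 had 25. Spred2 with 22 and Ctbp2 with 20, which each held 5 wide peaks, were also among the 10 protein-coding genes with the most stretches.

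Peaks on both strands at one place were rare. An opposite-strand peak lay within 200 bases of 9 wide peaks (0.944%, 0.498 to 1.79%), against 131 middle-width peaks (0.434%, 0.366 to 0.515%). Of these 9, 4 lay at one place on chromosome 17 that also holds the widest peaks of all. There 4 plus-strand peaks of 923, 1001, 838 and 812 bases ran between chr17:39843641 and chr17:39848843, with 7 minus-strand peaks of 147 to 426 bases. The peak of 838 bases lay in Rn18s-rs5, an 18S ribosomal RNA pseudogene. Ribosomal RNA has many near-identical copies in the genome, so where these reads came from is uncertain.

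Among the widest peaks elsewhere was one in Arid1a (875 bases, chr4:133752530-133753404). Cbfa2t2 (831), the TOP mRNA-binding protein gene Larp1 (827), the kinetochore gene Zwilch (827), the Mediator gene Med29 (822) and Zfp42 (813) also had peaks above 800 bases. Enah (793), Rbm39 (788), Zfp871 (770) and the gamma-protocadherin cluster (763) were also among the 15 widest.

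By chromosome, wide peaks were spread much like the rest. Chromosomes 11 and 8 held 135 and 82 of them, together 22.8% (20.2 to 25.5%), against 20.7% (20.2 to 21.2%) of the middle-width peaks, a difference of 2.07 points (-0.52 to 4.87). Among the numbered chromosomes and X, the share of peaks that were wide ran from 0.957% on chromosome 3 to 2.31% on chromosome 10. Without Tet1 it was 1.54% on chromosome 10, and chromosome 17, at 2.10%, then stood highest. Chromosome 17 without the ribosomal stretch had 1.95%. Chromosome Y had 7 wide of 80 peaks (8.75%, 4.30 to 16.98%). All 7 lay on the plus strand between chrY:90734427 and chrY:90814030, near the end of the chromosome and in no annotated gene. Whether their reads could also come from elsewhere in the genome was not tested.

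In no gene body lay 45 wide peaks (4.72%, 3.55 to 6.26%), against 1319 middle-width peaks (4.37%, 4.15 to 4.61%). The widest of them were the first 2 of the ribosomal stretch. The next was one of 720 bases, 0.444 kb from the long noncoding RNA gene Gm41782. Distances to genes run from the midpoint of the peak, so its edge lies nearer. For the 44 with a gene on their chromosome, the nearest gene was a median of 6.88 kb away. In 21 of these the nearest gene ended before the peak and lay on its strand, and in 14 it started after the peak on its strand, with the strand of some genes taken from their own peaks. Picked out after their values were seen, such peaks lay 0.64 kb beyond the end of Pou5f1 (613 bases wide), 0.717 kb beyond Zfp42 (615 bases) and 2.15 kb beyond Trim71 (525 bases). Trim71 is an RNA-binding regulator of early development, and its own gene body had 101 peaks of which none was wide.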

How the data were processed

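RNA bound in 2 DHX9 and 2 IgG pulldowns from WT26 cells was sequenced, and per the labels' protocols PCR duplicates were merged by random tags and IgG material was mixed with DHX9 material before RNA isolation. The authors deposited 1 peak list, called with PEAKachu per the file's source column. Bowtie2 2.2.6 and the build mm10 are named in the submitters' processing notes. No source used here states PEAKachu's settings, its use of replicates and IgG, or the depth. Per the file headers and columns, the deposited values are first base, last base and strand, and the score fields are empty.

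Widths were last minus first base plus 1. Genes, without exons, came from the RefSeq table of the same build, and strands from RefSeq promoter windows, or else from the strand of most of the gene's peaks (318 of the 400 genes used for position had a RefSeq strand). Position was measured from the peak's midpoint on the gene's own strand for protein-coding genes with a length of 20 kb or more. Python 3.11.15, pandas 2.3.3, NumPy 2.4.6, SciPy 1.17.1 and Matplotlib 3.10.9 were used, and the steps were tested on simulated data. No p-values were computed. Medians have order-statistic intervals at 95%.

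Named genes were the 15 with the most wide peaks, the 15 widest peaks, the 10 genes with the largest share among those with at least 20 peaks, the 10 long noncoding RNA genes with the most, up to 4 members of each list, small RNA genes whole inside wide peaks, the 3 widest peaks in no gene, the 3 genes with the most peaks and no wide one, and Dhx9. One long noncoding RNA gene at the ribosomal stretch is given by position only. A few genes that these rules name are not reported here. Others named were chosen after their values were seen. Members and lists were chosen with earlier results of these data known. Of each gene list, all genes were in the RefSeq table.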

Additional observations from a re-analysis of the deposited data

Results flagged for a closer look

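On the mitochondrial genome, which was left out of all counts above, 10 of 49 peaks (20.4%) were 500 bases or wider, 6 of them on the plus strand and the other 4 on the minus strand, with widths of 505 to 828 bases. They stand outside the main measurement and there is no level for the IgG samples to set them against. They were not analysed further.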

How the results depend on the processing

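Of 37 alternatives computed for 11 results, 24 left the value within its interval or direction, 13 moved it and 0 reversed it. With a width of at least 400 bases there were 3797 wide peaks in 1537 genes, the top 10 genes held 5.93% and the median gap was 68 bases. At 600 bases there were 227 peaks in 193 genes and the top 10 genes held 14.1%. Merging peaks within 50 bases gave 4184 wide stretches with a median gap of 118 bases. Midpoint distances of wide peaks had a median of 488 bases, with none computed for middle-width peaks. A neighbour within 20 bases was found for 23.6% and within 200 bases for 85.5%. In genes of at least 50 kb, 39.4% of wide peaks lay in the first 20%. The difference in that share stayed positive in the 6 alternatives computed, 5 of which were chosen after seeing the data, and its interval included 0 for genes that overlap no other gene and for 600 bases. With peaks merged it was 3.82 points (2.10 to 5.58). Leaving out replicates was not run, since the list holds no values per sample. No paired analysis was possible because the list holds no values per replicate. Without heights or depth, strong and weak wide peaks could not be told apart.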

Other observations

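Beyond the end of Rpl37a, a ribosomal protein gene, 2 wide peaks of 552 and 646 bases lay 1.61 and 2.35 kb away on the same strand. Beyond Kif14, a mitotic kinesin gene, 3 wide peaks of 514, 566 and 566 bases lay 19.7 to 29.5 kb away on its strand. Beyond Gnasas1, an antisense RNA of the imprinted Gnas locus, there were 3 of 591, 681 and 505 bases at 4.88 to 8.46 kb. Before the start of Usp7, a deubiquitinase gene, 3 of 615, 517 and 524 bases lay 14.9 to 30.5 kb away on its strand. These distances run from the midpoint of the peak. The peaks were chosen after their values were seen, and whether they belong to the transcripts of those genes was not tested.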
